A study of Homo sapiens with 12 samples.

Results

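The 10 genes described here, PAPLN, A2ML1, ANKRD22, KLHDC7B, CYP4F12, LAPTM5, STAP2, TTC21B, RAP1GAP and MST1R, are little-studied in the response to TWEAK and stand in none of the usual lists of NF-κB genes. They were picked by name from 62696 Ensembl gene identifiers for changes with TWEAK that were strong or differed between the 2 cell lines measured, although the change of RAP1GAP was small in both. The changes with TWEAK, and the difference of those changes between the lines, therefore chose the genes and are given as a description. Whether a gene of the 10 passed the threshold is stated, but it is not read as a test and no p is printed. The tests that are read concern other genes, namely the neighbours of the 10 on the chromosome and the genes the 10 are known to work with. The lists of the latter were drawn up with earlier results of these data known, so their tests are not independent of these data. The levels before treatment are part of the TWEAK changes of the 10, so they are given as a description too.

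SKBR3 and MDA-MB-453 are established human breast cancer cell lines of the HER2 subtype, and RNA-seq of polyA RNA was carried out on 12 libraries, 3 from each of 4 groups. The groups were untreated (UT) SKBR3, TWEAK-treated SKBR3, untreated MDA-MB-453 and TWEAK-treated MDA-MB-453. Cells of all groups were plated in DMEM with 10% FBS for 24 h and then kept for 8 h in Opti-MEM, and the treated cells received TWEAK at 10 ng/ml for 48 h with a fresh dose at 24 h. The labels give this protocol for untreated libraries as well and name no vehicle. Each line is a single established culture, so the comparisons hold for these 2 lines and not for HER2 tumours. By the study's methods, cell line experiments were repeated independently and on separate days; the labels do not say which day a replicate number stands for.

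TWEAK is a cytokine of the tumour necrosis factor family, and Fn14, encoded by TNFRSF12A, is its receptor. Fn14 recruits TRAF adaptors, which releases the kinase NIK from degradation, and NIK starts the non-canonical NF-κB pathway in which the NFKB2 product is processed and pairs with RELB. The receptor also feeds the canonical NF-κB pathway and the MAP kinases that act on AP-1. The 10 genes lie outside this core: they encode an extracellular matrix protein, a secreted protease inhibitor, a fatty acid hydroxylase, a lysosomal membrane protein, an adaptor, a receptor tyrosine kinase, a GTPase-activating protein, a ciliary transport protein and 2 proteins of little-known role.

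The libraries held 24842722 to 28647209 counts on genes in SKBR3 and 24773003 to 35208304 in MDA-MB-453. Levels below are counts per 1000000 counts on genes (CPM), scaled with TMM factors over the 12 libraries, as mean ± SD of 3 libraries. ERBB2, which encodes HER2, stood at 7571 ± 285 CPM in untreated SKBR3 and 889.7 ± 16.1 CPM in untreated MDA-MB-453, EPCAM, KRT8, KRT18 and KRT19 were high in both lines, and ESR1 and PGR stayed below 2 CPM in every group. In SKBR3, ESR1 rose from 0.498 ± 0.0818 to 1.27 ± 0.296 CPM (adjusted p = 0.0112) and KRT19 rose by 0.32 on the log2 scale (adjusted p = 0.0608), a call lost without untreated replicate 1 or 2. CDH1 had 1 to 7 counts in the SKBR3 libraries. NFKB2 rose in both lines, by 1.79 (SE 0.07) in SKBR3 and 1.67 (SE 0.05) in the other line on the log2 scale (adjusted p = 9.34e-08 and 3.01e-10, edgeR), as did RELB, and TNFRSF12A rose by 0.36 in SKBR3 (adjusted p = 0.0322). The TNFRSF12A call was lost without untreated replicate 1 or 2 (adjusted p = 0.170 and 0.144). Replicate 2 of the TWEAK-treated cells stood apart in both lines, with a chi-square per degree of freedom against the other treated libraries of 21.1 and 23.8 in SKBR3 and of 10.2 and 5.31 in the other line, compared with 1.78 to 5.74 for all other pairs of replicates. Without that library the log2 fold changes of the 10 genes moved by at most 0.16 in SKBR3. In the other line only 8 of them had a fold change, and these moved by at most 0.19. The share of all genes called went from 10.4% to 17.4% in SKBR3 and from 1.49% to 13.8% in MDA-MB-453. Other libraries moved that share down when left out. In SKBR3 it was 5.76% without untreated replicate 2 and 6.11% without replicate 1 of the same group. In MDA-MB-453 the untreated replicates 2 and 3 took it to 0.864% and 0.863%, and treated replicate 3 to 0.943%.

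RefSeq promoter windows, which run from 250 bases before a transcription start to 50 bases after it (GRCh38.p14), were found for 8 of the 10 genes, with 2 windows each for PAPLN and A2ML1. CYP4F12 and RAP1GAP had no window. The windows were searched on both strands for the NF-κB consensus, AP-1 (TGANTCA), an interferon-stimulated response element (GAAA, any 2 bases and GAAA again), a STAT site (TTCNNNGAA) and CRE (TGACGTCA). Matches were found for 2 genes. The STAP2 window at chr19:4338778-4339077 on the minus strand held 3 matches to the NF-κB consensus, of which GGGGATTTCC and GGGATTTCCC overlap and start 100 and 99 bases before the start, and the third, GGAAACTCCC, starts 17 bases before it and matches on the other strand. The ANKRD22 window at chr10:88851795-88852094 on the minus strand held 1 AP-1 match, TGACTCA, 58 bases before the start. Of 35116 windows in the table, 11.3% held an NF-κB consensus match, 0.994% held 2 or more separate ones and 7.71% held an AP-1 match. Those shares were 3.57% for the interferon element, 7.66% for the STAT site and 1.85% for CRE. The 2 windows with a match are printed with the matches in capitals, next to those of KLHDC7B (chr22:50545649-50545948, plus strand) and LAPTM5 (chr1:30757725-30758024, minus strand), 2 genes with few untreated SKBR3 counts (28 and 5 over 3 libraries), whose windows held no match. All are written from 5′ to 3′ on the strand of the gene, and a match is a description of letters, not of binding.

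STAP2: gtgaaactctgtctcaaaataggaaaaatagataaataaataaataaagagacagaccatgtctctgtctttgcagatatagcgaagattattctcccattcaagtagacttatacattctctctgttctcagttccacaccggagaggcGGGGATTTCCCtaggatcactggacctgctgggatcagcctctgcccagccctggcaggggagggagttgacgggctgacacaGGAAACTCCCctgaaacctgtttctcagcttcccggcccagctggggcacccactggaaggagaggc
ANKRD22: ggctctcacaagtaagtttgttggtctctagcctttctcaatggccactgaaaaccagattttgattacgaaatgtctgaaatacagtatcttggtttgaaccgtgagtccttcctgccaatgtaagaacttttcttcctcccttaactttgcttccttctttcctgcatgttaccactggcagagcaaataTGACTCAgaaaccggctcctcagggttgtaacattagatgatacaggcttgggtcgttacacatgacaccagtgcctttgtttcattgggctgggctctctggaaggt
KLHDC7B: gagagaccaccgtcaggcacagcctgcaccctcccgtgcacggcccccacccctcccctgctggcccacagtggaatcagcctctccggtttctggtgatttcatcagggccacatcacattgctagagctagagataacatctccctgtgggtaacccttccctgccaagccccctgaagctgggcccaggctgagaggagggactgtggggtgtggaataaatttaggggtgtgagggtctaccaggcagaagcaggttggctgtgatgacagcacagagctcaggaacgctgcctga
LAPTM5: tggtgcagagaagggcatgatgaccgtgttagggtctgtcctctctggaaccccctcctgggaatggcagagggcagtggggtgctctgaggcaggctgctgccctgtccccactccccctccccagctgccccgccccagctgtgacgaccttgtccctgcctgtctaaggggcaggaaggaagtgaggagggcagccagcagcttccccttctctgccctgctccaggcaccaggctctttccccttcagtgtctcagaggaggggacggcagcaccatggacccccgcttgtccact

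In SKBR3, all 10 genes passed the filter on low counts, 8 were higher with TWEAK and 2 were lower, and in each of the 10 the untreated and treated libraries did not overlap. Of the 15661 genes tested in that line, 10.4% were called at an adjusted p of at most 0.1 (6.60% higher and 3.82% lower), and 26.5% had groups that did not overlap (14.4% higher and 12.2% lower). In MDA-MB-453, 8 of the 10 genes passed the filter, 3 were called higher (ANKRD22, KLHDC7B and CYP4F12) and 2 lower (TTC21B and RAP1GAP), and 6 had groups that did not overlap. There, 1.49% of 14929 genes were called (1.29% higher and 0.208% lower) and 15.1% did not overlap (8.20% higher and 6.88% lower). The genes were chosen for these contrasts, so nothing is read from their counts against the background. A2ML1 and LAPTM5 did not pass the filter in MDA-MB-453. The filter asked for at least 3 libraries at 0.389 CPM in SKBR3, or at 0.386 CPM in the other line. CYP4F12 and KLHDC7B in both lines and LAPTM5 in SKBR3 reached this through the treated libraries only, with at most 1 untreated library at that level. Entry in that way favours genes that are higher with TWEAK, so calls of such genes are not read as tests. PAPLN in MDA-MB-453 reached it in 2 untreated and 3 treated libraries. As in any bulk sample, a change in the RNA per cell and a change in the share of cells that carry it cannot be told apart.

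**Figure D1:**
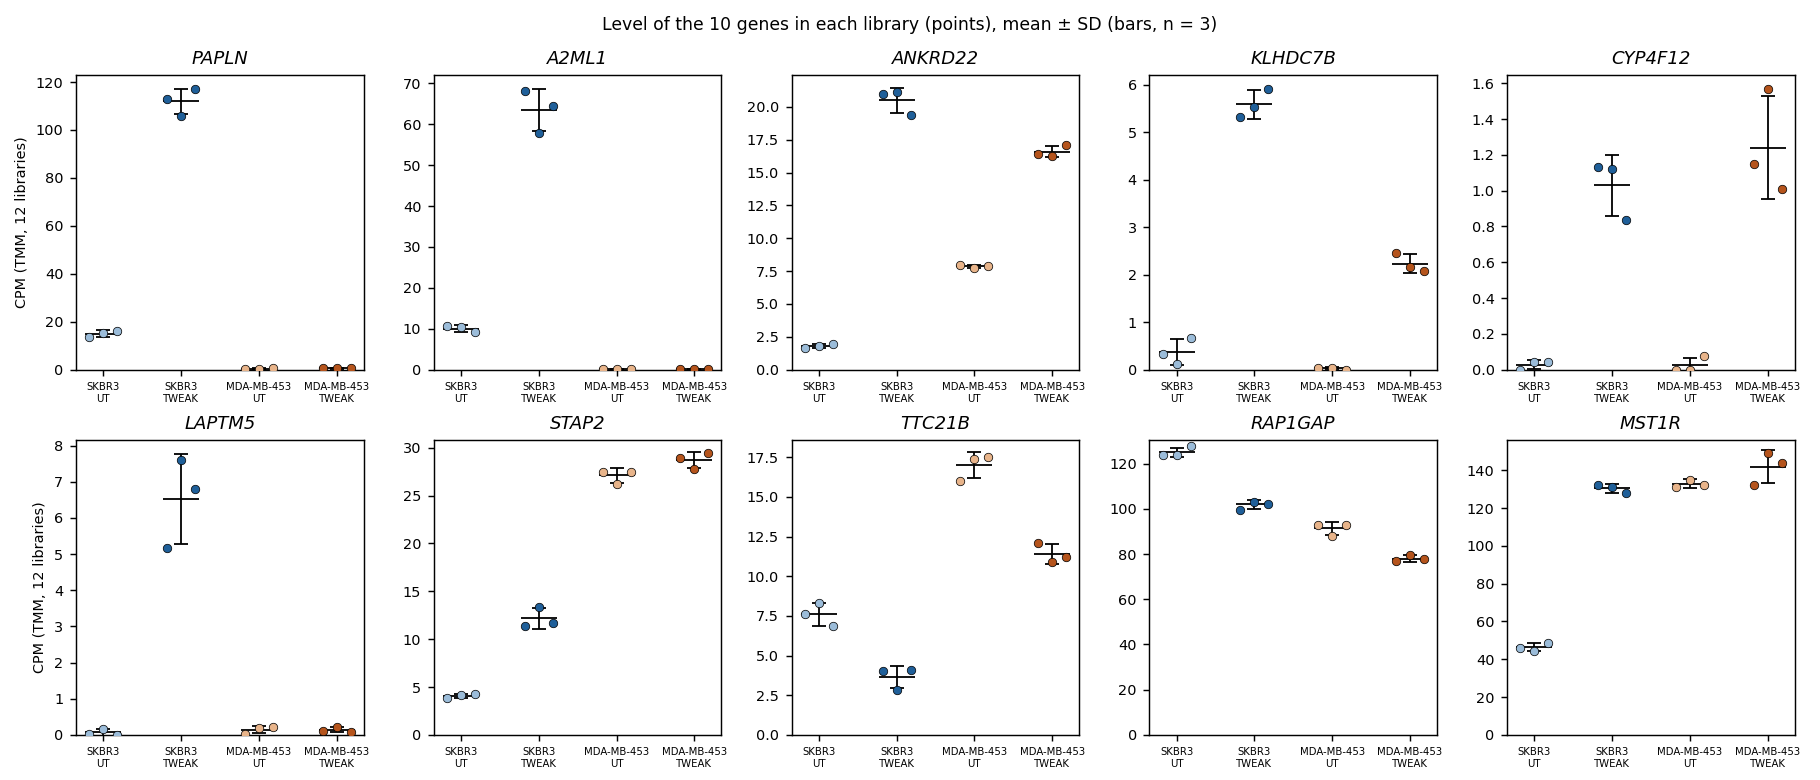
Level of each of the 10 genes in CPM (TMM factors over 12 libraries) in the untreated (UT) and TWEAK-treated libraries of SKBR3 (blue) and MDA-MB-453 (orange). Points are libraries and bars are the mean ± SD of 3; each panel has its own linear axis from 0, and in SKBR3 8 genes sit higher and 2 lower in the treated libraries.

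PAPLN and A2ML1 encode secreted proteins, and both were raised several-fold in SKBR3 and close to undetected in MDA-MB-453. PAPLN (ENSG00000100767, chr14:73237497-73274640, plus strand) encodes papilin, a matrix glycoprotein of basement membranes related to the ADAMTS proteases. Its level was 13.6, 15.1 and 16.2 CPM in the untreated SKBR3 libraries and 113, 106 and 117 CPM in the treated ones. The treated libraries stood far above the untreated ones, from 15.0 ± 1.32 to 112 ± 5.28 CPM, a log2 fold change of 2.90 (SE 0.08). In MDA-MB-453 the gene had 10, 6 and 13 counts in untreated libraries and 12, 13 and 28 in treated ones. These groups overlapped and the call was not made, with a log2 fold change of 0.72 (SE 0.35) and a mean of 0.570 ± 0.168 CPM with TWEAK. Antisense genes share 8.33% of the exonic bases of PAPLN, and the one with the most reads, ENSG00000258944, had 63 counts in untreated and 45 in treated SKBR3, against 1137 and 8259 for PAPLN.

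A2ML1 (ENSG00000166535, chr12:8822621-8887001, plus strand) encodes an alpha-2-macroglobulin-like protease inhibitor known from the epidermis. It measured 10.7, 10.3 and 9.07 CPM in untreated SKBR3 and 68.2, 57.8 and 64.4 CPM after TWEAK. Again every treated library lay above every untreated one, and the log2 fold change was 2.65 (SE 0.09). MDA-MB-453 had 3, 3 and 2 counts untreated and 6, 2 and 5 counts treated. With so few reads the ratio of summed counts was 1.48 with an exact 95% interval of 0.569 to 4.12, which covers counting error only, so a change was not detectable at this depth.

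ANKRD22 and KLHDC7B, the ankyrin repeat and kelch repeat proteins of little-known role, were higher with TWEAK in both lines. ANKRD22 (ENSG00000152766, chr10:88819896-88851844, minus strand), whose window with the AP-1 match is printed above, stood at 1.62, 1.78 and 1.98 CPM in untreated SKBR3 and at 21.0, 21.1 and 19.4 CPM in treated cells. In MDA-MB-453 it measured 7.94, 7.72 and 7.92 CPM untreated and 16.4, 16.3 and 17.1 CPM treated. The 4 groups did not overlap: untreated SKBR3 was lowest, then untreated MDA-MB-453, treated MDA-MB-453 and treated SKBR3. The order of the lines thus turned over, and the log2 fold changes were 3.51 (SE 0.11) and 1.08 (SE 0.07). LIPM, on the opposite strand over 7.88% of its exonic bases, had at most 1 count in any library.

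KLHDC7B (ENSG00000130487, chr22:50545899-50551023, plus strand) is annotated as a single exon. It had 9, 3 and 16 counts in untreated SKBR3 and 132, 138 and 142 counts in treated SKBR3. Untreated MDA-MB-453 had 1, 1 and 0 counts and treated MDA-MB-453 had 64, 58 and 76. The gene was near the limit of detection before TWEAK and clearly detected after it in every treated library, at 5.59 ± 0.301 CPM in SKBR3 and 2.23 ± 0.204 CPM in MDA-MB-453. In SKBR3 the log2 fold change was 3.91 (SE 0.28), from 3.52 without untreated replicate 2 to 4.57 without untreated replicate 3. Summed counts in MDA-MB-453 gave a ratio of 90.3 (exact 95% interval 24.7 to 751), which ranged from 60.1 to 121 as each library was left out.

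CYP4F12 (ENSG00000186204, chr19:15673018-15697174, plus strand) encodes a cytochrome P450 that hydroxylates fatty acids and is best known from liver and gut. In SKBR3 the untreated libraries had 0, 1 and 1 counts and the treated ones 28, 28 and 20. In MDA-MB-453 the untreated libraries had 0, 0 and 2 counts and the treated ones 30, 42 and 37. All 6 treated libraries were above all 6 untreated ones, at 1.03 ± 0.169 and 1.24 ± 0.289 CPM in the 2 lines. The ratios of summed counts were 39.3 (exact 95% interval 10.5 to 331) in SKBR3 and 49.7 (13.4 to 416) in MDA-MB-453. With each library left out the SKBR3 ratio ranged from 25.0 without untreated replicate 1 to 53.7 without untreated replicate 2 or 3. Without untreated replicate 3 of MDA-MB-453 no untreated count was left, and the treated cells were at least 22.1-fold higher than the limit of 3 counts over that group. CYP4F genes are close paralogues in 1 cluster, and reads that fit several of them may be split by the counting in a way that is not stated.

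LAPTM5 (ENSG00000162511, chr1:30732469-30757774, minus strand) encodes a lysosomal membrane protein of haematopoietic cells, where it binds the ubiquitin ligase NEDD4 and promotes the turnover of antigen receptors. Untreated SKBR3 had 1, 4 and 0 counts and treated SKBR3 had 128, 190 and 163, or 5.17, 7.61 and 6.80 CPM. MDA-MB-453 had 1, 5 and 6 counts untreated and 3, 6 and 3 treated. The gene thus went from near 0 to several CPM in SKBR3, whereas in MDA-MB-453 both groups stayed at 6 counts or fewer and overlapped. The ratio of summed counts was 99.6 (exact 95% interval 42.4 to 308) in SKBR3 and 0.912 (0.375 to 2.22) in MDA-MB-453. It rests on the untreated libraries: the SKBR3 ratio was 340.2 without untreated replicate 2, which held 4 of the 5 untreated counts, and 67.9 without untreated replicate 3. An antisense gene, ENSG00000287510, shares 19.3% of the exonic bases and had at most 1 count in any library.

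Because LAPTM5 marks haematopoietic cells, 13 leukocyte markers were read beside it. PTPRC, CD3D, CD3E, MS4A1 and CD53 had at most 5 counts in every library of both lines, treated or not. The summed level of the list was 191 to 202 CPM in untreated and 189.5 to 207 CPM in treated SKBR3, and 12.3 to 13.8 and 14.1 to 15.4 CPM in MDA-MB-453. Most of the SKBR3 sum came from CORO1A, at 114 ± 4.05 CPM untreated, with LCP1 at 42.5 ± 0.736, VAV1 at 23.8 ± 1.45 and CSF1R at 13.6 ± 1.17 CPM. Of 7 markers tested in SKBR3, 1 rose and 1 fell, and of 3 tested in MDA-MB-453, 1 was called higher, beside 10.4% and 1.49% of all genes called. These are named after their values were seen. ITGAM, an integrin subunit of myeloid cells, rose in SKBR3 from 0.790 ± 0.254 to 23.7 ± 1.54 CPM (adjusted p = 2.22e-08, edgeR). It is also the 1 counted in MDA-MB-453, where it had 3, 0 and 3 counts untreated and 35, 41 and 43 treated and passed the filter through the treated libraries only, so no p is given. CORO1A, an actin regulator, fell by 0.39 on the log2 scale in SKBR3 (adjusted p = 0.0145). Of 8 fibroblast and endothelial markers, SKBR3 had 3 that were tested and MDA-MB-453 had 2, and 1 was called, in SKBR3, where 10.4% of all genes were. This was CDH5, of endothelial junctions, which rose from 1.74 ± 0.166 to 4.20 ± 0.765 CPM in SKBR3 (adjusted p = 0.000855). COL1A2, a fibroblast collagen gene that was not tested, had 2, 1 and 3 counts in untreated and 10, 8 and 12 in treated SKBR3.

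MST1R, STAP2 and RAP1GAP act in signalling from receptors. MST1R (ENSG00000164078, chr3:49887002-49903873, minus strand) encodes RON, the receptor tyrosine kinase for macrophage-stimulating protein. It was measured at 46.2, 44.2 and 48.5 CPM in untreated SKBR3 and at 132, 131 and 128 CPM in treated SKBR3. In MDA-MB-453 it was at 131, 135 and 132 CPM untreated and at 132, 149 and 144 CPM treated. TWEAK-treated SKBR3 thus reached the lower end of the MDA-MB-453 libraries, where the groups overlapped. The log2 fold change was 1.49 (SE 0.06) in SKBR3, and in MDA-MB-453 it was 0.10 (SE 0.05) and not called.

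STAP2 (ENSG00000178078, chr19:4324043-4342786, minus strand), whose window with the NF-κB matches is printed above, encodes an adaptor that binds STAT3 and STAT5 and is phosphorylated by the breast tumour kinase PTK6. Levels were 3.81, 4.14 and 4.25 CPM in untreated and 11.4, 13.4 and 11.7 CPM in treated SKBR3. MDA-MB-453 held 27.5, 26.2 and 27.5 CPM before and 28.9, 27.8 and 29.5 CPM after TWEAK. Every SKBR3 library remained below every MDA-MB-453 library, treated or not. The log2 fold change was 1.58 (SE 0.11) in SKBR3, and in MDA-MB-453, where the groups did not overlap by a narrow margin, 0.09 (SE 0.05) and not called. In the GENCODE annotation the gene reaches 4342786, upstream of the printed RefSeq window.

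RAP1GAP (ENSG00000076864, chr1:21596221-21669357, minus strand) encodes a protein that switches off the small GTPase RAP1. It was lower with TWEAK, at 124, 124 and 128 CPM untreated against 99.4, 103 and 102 CPM treated in SKBR3. In MDA-MB-453 the libraries gave 93.0, 88.0 and 93.1 CPM untreated and 76.8, 79.6 and 77.7 CPM treated. The groups did not overlap in either line, and the change was small, with log2 fold changes of -0.31 (SE 0.06) and -0.23 (SE 0.04).

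TTC21B (ENSG00000123607, chr2:165857475-165953851, minus strand) encodes a subunit of intraflagellar transport complex A, which carries cargo back from the tip of the cilium. It was at 7.61, 8.31 and 6.88 CPM in untreated and 4.04, 2.84 and 4.09 CPM in treated SKBR3. In MDA-MB-453 it was at 16.0, 17.4 and 17.5 CPM untreated and 12.1, 10.9 and 11.2 CPM treated. All treated libraries were below the untreated ones of the same line, with log2 fold changes of -1.06 (SE 0.15) and -0.58 (SE 0.07). In SKBR3 the value was -0.91 without treated replicate 2, the library that stood apart and the lowest of the 3.

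**Figure D2:**
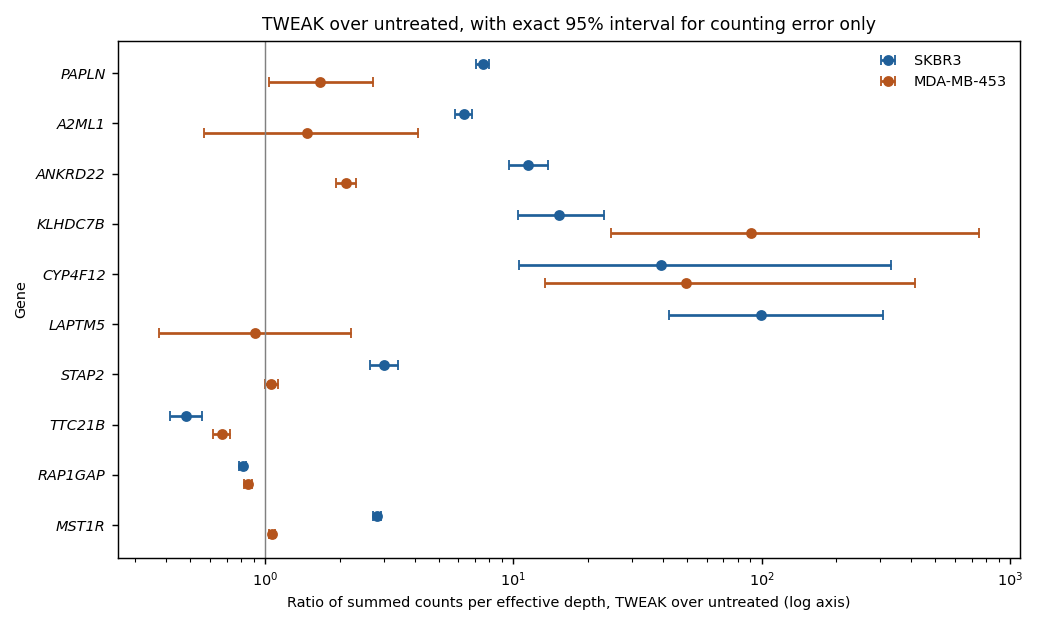
Ratio of summed counts per effective depth, TWEAK over untreated, for the 10 genes in SKBR3 (blue) and MDA-MB-453 (orange) on a log axis; bars are exact 95% intervals for counting error only and the grey line marks a ratio of 1. The widest intervals belong to CYP4F12 and to KLHDC7B in MDA-MB-453, each with 2 untreated counts in all.

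The plot of count ratios shows the range, from 99.6 for LAPTM5 in SKBR3 down to 0.480 for TTC21B in SKBR3. The biological coefficient of variation fitted by edgeR in SKBR3 ran from 5.69% for RAP1GAP to 13.0% for LAPTM5, beside 7.20% over all genes. In MDA-MB-453 it ran from 2.59% for ANKRD22 to 11.5% for CYP4F12, beside 3.91% over all genes.

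The difference of the TWEAK changes between the lines was also part of the choice. It is given as a description, and nothing is read from its count against the background. Computed over the 12 libraries as the MDA-MB-453 change less the SKBR3 change, it passed the threshold in 5 of the 10 genes, all with a lower value, and in 3.37% of 17201 genes (1.01% higher and 2.36% lower). The values were negative, so these 5 changed less in MDA-MB-453: LAPTM5 by -6.67 (SE 1.07) on the log2 scale (from -8.23 without untreated replicate 2 of SKBR3 to -6.13 without untreated replicate 3), ANKRD22 by -2.44 (SE 0.12), PAPLN by -2.18 (SE 0.37), STAP2 by -1.50 (SE 0.11) and MST1R by -1.40 (SE 0.08). DESeq2 called 7 of the 10 for this difference, these 5 among them. With edgeR the other 5 did not pass the threshold. Their differences were -2.11 (SE 0.68) for A2ML1, 2.34 (SE 0.86) for KLHDC7B, 0.33 (SE 1.48) for CYP4F12, 0.48 (SE 0.16) for TTC21B and 0.07 (SE 0.07) for RAP1GAP. That of KLHDC7B ran from 1.69 without untreated replicate 3 of SKBR3 to 2.72 without untreated replicate 2. A2ML1 and KLHDC7B had 8 and 2 counts in untreated MDA-MB-453. Over the 12 libraries LAPTM5 passed the filter through treated SKBR3 only, and KLHDC7B and CYP4F12 through treated libraries only.

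The level before treatment was not itself a criterion of the choice, and the untreated groups were compared by edgeR over the 12 libraries. The same untreated libraries are the base of the TWEAK contrasts that chose the genes, so the differences are given as a description with no p. Line and any batch of a line cannot be told apart. Of the 10 genes, 8 differed between the untreated lines, 4 in each direction, and 84.2% of 17201 genes did (43.5% higher and 40.7% lower in SKBR3), so this share is near the background. The 8 include A2ML1, which passed the filter through SKBR3 libraries only, and KLHDC7B, which passed it through treated libraries only, and both are given by their counts. PAPLN was higher in untreated SKBR3 by 5.38 (SE 0.17) on the log2 scale and RAP1GAP by 0.46 (SE 0.05). A2ML1 had 768 counts in untreated SKBR3 and 8 in untreated MDA-MB-453, a ratio of 103 per effective depth (exact 95% interval 51.9 to 239, counting error only). KLHDC7B had 28 and 2 counts, a ratio of 15.0 (3.78 to 129.8). That ratio ranged from 9.41 without untreated replicate 3 of SKBR3 to 20.1 without untreated replicate 1 of MDA-MB-453. STAP2, ANKRD22, MST1R and TTC21B were lower in untreated SKBR3. Their log2 differences were -2.74 (SE 0.08), -2.14 (SE 0.10), -1.52 (SE 0.06) and -1.16 (SE 0.10). LAPTM5 passed the filter through treated SKBR3 only and CYP4F12 through treated libraries only, so they are given by their counts too. LAPTM5 had 5 counts in untreated SKBR3 and 12 in untreated MDA-MB-453, a ratio of 0.446 (exact 95% interval 0.123 to 1.36), and 0.131 (0.00305 to 0.882) without untreated replicate 2 of SKBR3. CYP4F12 had 2 counts in each untreated line, too few to compare.

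Levels of different genes were compared per exonic kilobase, as the rank of the group mean among the protein-coding genes tested in the line. In untreated SKBR3 the 10 genes were spread from the bottom of the range to its upper part. RAP1GAP lay at percentile 84.3 and MST1R at 64.1, PAPLN, STAP2 and A2ML1 between 24.7 and 29.4, and ANKRD22, TTC21B, KLHDC7B, LAPTM5 and CYP4F12 at or below 13.0. With TWEAK, PAPLN reached percentile 76.3 (14.6 ± 0.686 CPM per kb), A2ML1 63.9, ANKRD22 49.3 and MST1R 85.9. LAPTM5 moved from 0.192 to 29.7 and KLHDC7B from 1.66 to 21.4, whereas CYP4F12 remained low, at 6.22. In MDA-MB-453 MST1R, RAP1GAP and STAP2 kept ranks above 64 in both groups, KLHDC7B moved to 10.6, CYP4F12 to 6.63 and PAPLN to 1.43. The level per kilobase depends on the length used: the annotated exons of TTC21B add up to 33812 bases and its canonical transcript to 5415. By the canonical length, CYP4F12 in treated SKBR3 was at 0.600 CPM per kb and not 0.202. STAP2 was at 8.85 and not 4.40 there, and RAP1GAP at 30.6 and not 17.7. The ranks are given by exonic length only.

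**Figure D3:**
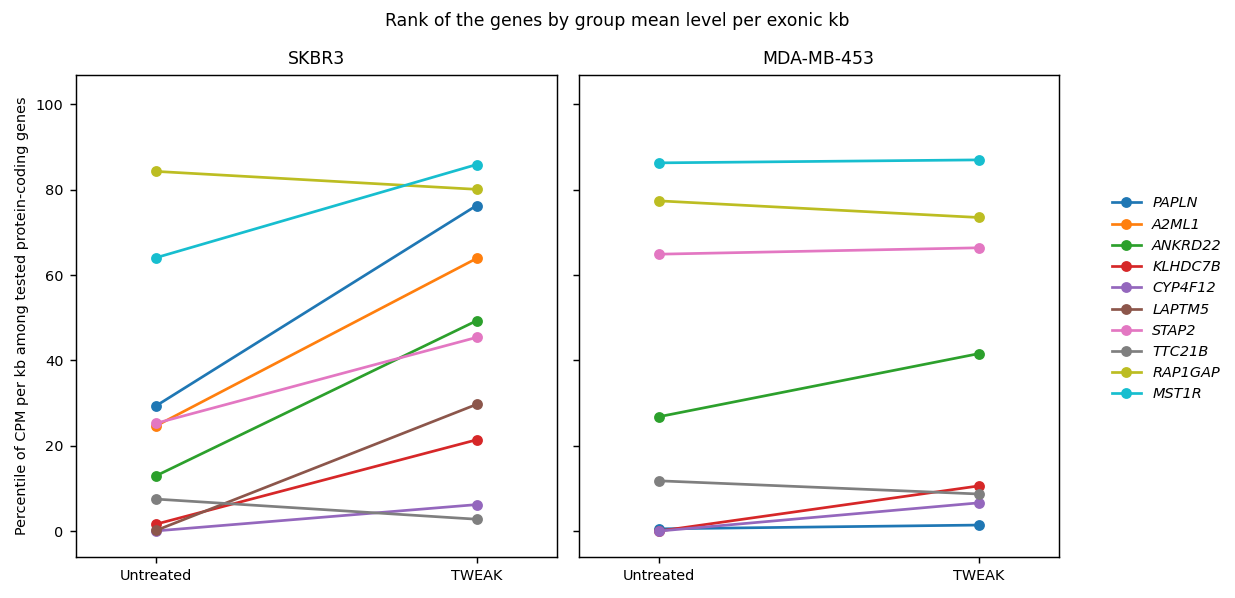
Percentile of the group mean level, in CPM per exonic kilobase, among the protein-coding genes tested in SKBR3 (12499) and in MDA-MB-453 (11874), for untreated and TWEAK-treated cells. Lines join the 2 groups of a gene; A2ML1 and LAPTM5 were not tested in MDA-MB-453, and PAPLN moves from 29.4 to 76.3 in SKBR3 and from 0.539 to 1.43 in MDA-MB-453.

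Genes known to work with the 10, or related to them, were followed in 9 lists, drawn up with earlier results of these data known. In SKBR3, 12 of their 109 tested genes passed the threshold (8 higher and 4 lower), a share of 11.0% beside 10.4% over all genes, and the median log2 fold change was -0.02 beside -0.01. In MDA-MB-453, 1 of 102 passed, a share of 0.980% beside 1.49%, and both medians were 0.00 to 2 decimals. The SKBR3 count was 7 without untreated replicate 3 and 22 without treated replicate 2, and the MDA-MB-453 count ran from 0 to 23 as each library was left out, with 23 without treated replicate 2. These shares are near the background in both lines, which itself moves with the library left out as given above, and the 8 include CYP4F8, whose entry into the test is described with the neighbours.

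Of the kinases, transcription factors and adaptors that work with STAP2, 3 of 11 tested rose in SKBR3, beside 6.60% of all genes. The other line had 1 of 9, beside 1.29%. STAT5A, a transcription factor of cytokine receptors, rose from 3.54 ± 0.269 to 7.98 ± 0.791 CPM, a log2 fold change of 1.17 (SE 0.12, adjusted p = 0.000115). STAT3, its relative, rose from 493 ± 5.40 to 688 ± 27.2 CPM (0.48, SE 0.05, adjusted p = 0.000238). MYD88, the adaptor of Toll-like receptors, rose by 0.28 in SKBR3 (adjusted p = 0.00854) and by 0.19 in MDA-MB-453 (adjusted p = 0.0387), the latter a call kept in 2 of 6 fits with a library left out and lost with all 12 libraries in 1 fit (0.107). STAT3 in MDA-MB-453 was at 71.2 ± 0.561 and 71.8 ± 1.64 CPM.

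Among the relatives of CYP4F12 together with POR, 3 of 5 genes tested were called higher in SKBR3, where 6.60% of all genes were. Of the 3, CYP4F8 entered the test through the treated libraries only. CYP4B1 went from 6.35 ± 0.205 to 10.5 ± 0.692 CPM (log2 fold change 0.72, SE 0.10, adjusted p = 0.000596) and CYP4X1 from 0.946 ± 0.110 to 1.82 ± 0.243 CPM (0.94, SE 0.20, adjusted p = 0.0156). The third, CYP4F8, is also the neighbour of CYP4F12 and is described with the neighbours. POR, which passes electrons to all of these enzymes, was at 314 ± 16.3 and 356 ± 19.0 CPM and did not pass (adjusted p = 0.147). In MDA-MB-453, 0 of 4 tested genes of this list were called, where 1.49% of all genes were.

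Of the LAPTM family, NEDD4 ligases and lysosomal membrane proteins, CD63, a tetraspanin of late endosomes, rose by 0.60 (SE 0.10) in SKBR3 (adjusted p = 0.00268), and NEDD4, the ligase that binds LAPTM5, fell by 0.37 (SE 0.11, adjusted p = 0.0802), a call lost without any 1 of the untreated libraries. Of the RAP1 genes, RAPGEF3, an exchange factor that switches RAP1 on in response to cyclic AMP, fell by 0.43 (adjusted p = 0.0306, but 0.136 without untreated replicate 3), and RAP1GAP2, the relative of RAP1GAP, by 0.22 (adjusted p = 0.0973, kept in 2 of 6 fits with a library left out and lost with DESeq2 and without the filter on low counts, both at 0.124). Of 27 intraflagellar transport genes tested with TTC21B, IFT122, another subunit of complex A, rose by 0.23 (adjusted p = 0.0455), kept in 1 of 6 such fits and lost without that filter (0.127), and the list had a median of -0.05. KLHDC10, of the kelch family, fell by 0.24 (adjusted p = 0.0747), lost without any 1 of the untreated libraries. Of the genes tested in SKBR3, 2 of 13 were called in the LAPTM list and 2 of 21 in the RAP1 list. The transport list had 1 of 27 and the kelch list 1 of 6, beside 10.4% of all genes.

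No gene of the other 3 lists passed edgeR's threshold in either line. For the ligand, proteases, inhibitors and adaptors of RON, 12 genes were tested in SKBR3, of which 2 had an unadjusted p under 0.05 and DESeq2 called 1, and their log2 fold changes lay between -0.17 and 0.26. MST1, which encodes the ligand itself, was at 3.27 ± 0.450 CPM in untreated and 3.12 ± 0.351 CPM in treated SKBR3. In MDA-MB-453, 1 of 11 had an unadjusted p under 0.05 and DESeq2 called 0. Of the alpha-2-macroglobulin family with its receptor, 5 genes were tested in SKBR3 and 4 in MDA-MB-453, with 0 and 1 at an unadjusted p under 0.05 and 0 called by DESeq2 in both. Of the ADAMTS and ADAMTS-like relatives of PAPLN, 10 and 7 were tested, with 0 at an unadjusted p under 0.05 and 0 called by DESeq2.

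The nearest tested protein-coding gene on each side of each of the 10 genes was read in the same libraries. In SKBR3, 6 of 20 neighbours passed the threshold (30.0%, beside 10.4% of all genes), 3 higher and 3 lower, and the median log2 fold change of the 20 was -0.01. The count was 4 without untreated replicate 2 or 3, and CYP4F8 and LIPK passed the filter through the treated libraries only, so the share is not read against the background. In MDA-MB-453, 1 of 20 passed, beside 1.49% of all genes, and 5 passed without treated replicate 2. ODF3B, 13.4 kb from KLHDC7B, was the neighbour that rose in both lines. In SKBR3 it stood at 1.91 ± 0.423 CPM untreated and 4.19 ± 0.757 CPM treated (log2 fold change 1.14, SE 0.20, adjusted p = 0.00395). In MDA-MB-453 these were 3.48 ± 0.569 and 7.10 ± 0.718 CPM (1.02, SE 0.12, adjusted p = 0.000291). CYP4F8, a fatty acid hydroxylase gene 42.4 kb from CYP4F12, had 6, 0 and 3 counts in untreated and 28, 13 and 25 in treated SKBR3. Its log2 fold change there was 2.87 (SE 0.57), from 2.34 to 3.74 with each library left out, and in MDA-MB-453 its change was 0.67 (SE 0.17, adjusted p = 0.110). Whether reads shared with CYP4F12 enter these counts was not tested. LIPK, of the acid lipase family and 67.1 kb from ANKRD22, was at 0.379 ± 0.0441 CPM in untreated and 0.896 ± 0.106 CPM in treated SKBR3 (1.22 on the log2 scale).

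Of the 3 neighbours that fell in SKBR3, 1 lies beside a gene that was itself lower with TWEAK. ALPL, 17.8 kb from RAP1GAP, fell by 0.93 (adjusted p = 0.0495), a call lost with DESeq2 (adjusted p = 0.193) and in 3 of 6 fits with a library left out. PTPRU, a receptor phosphatase gene 1406 kb from LAPTM5, fell by 0.32 (adjusted p = 0.0165). NUMB, an inhibitor of Notch signalling whose gene lies 0.467 kb from the end of PAPLN, fell by 0.25 (adjusted p = 0.0559), from 87.6 ± 1.95 to 73.7 ± 6.11 CPM, while PAPLN was 7.47-fold higher, and this call was lost without any 1 of the untreated libraries. The genes on either side of STAP2, A2ML1, MST1R and TTC21B did not pass in either line, among them FSD1, 0.200 kb from STAP2, at 2.73 ± 0.322 and 3.43 ± 0.327 CPM (adjusted p = 0.254).

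**Figure D4:**
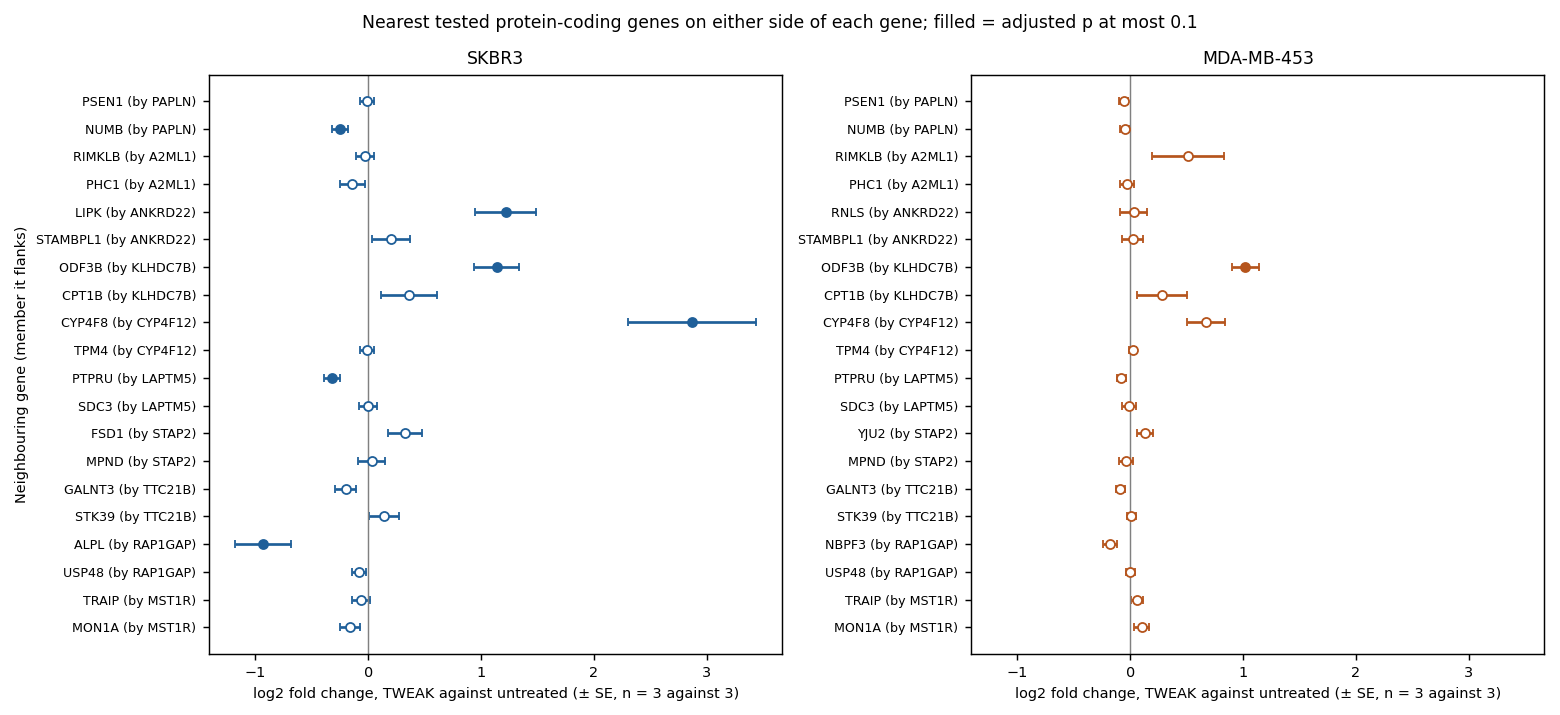
Log2 fold change with TWEAK (points, ± SE, 3 libraries against 3) of the nearest tested protein-coding gene on each side of each of the 10 genes, in SKBR3 (left) and MDA-MB-453 (right). Filled points have an adjusted p of at most 0.1 (edgeR); they are 6 of 20 in SKBR3, of which CYP4F8 lies farthest to the right at 2.87, and ODF3B alone in MDA-MB-453.

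For each of the 10 genes, the 2 genes with the most similar levels over the 12 libraries were taken from 13613 genes by Pearson's r of log2 CPM. The libraries are 4 groups, so r mostly follows the group means and says nothing of size. The pattern of KLHDC7B was closest to BIRC3 (r = 0.9782) and NFKBIA (r = 0.9772), and that of CYP4F12 to IRF1 (r = 0.9723) and MAP3K14 (r = 0.9656), which encodes NIK. BIRC3 had means of 2.25 and 24.2 CPM in untreated and treated SKBR3 and of 0.662 and 7.96 CPM in MDA-MB-453. MAP3K14 had means of 10.2 and 30.2 CPM in SKBR3 and of 7.24 and 28.0 CPM in MDA-MB-453. BIRC3 and MAP3K14 were picked for their likeness to genes that were higher with TWEAK in both lines, so their own higher treated means follow from that choice.

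The nearest patterns of PAPLN, A2ML1 and LAPTM5 were other genes. They were GABBR2 (r = 0.9970) and NANOS1 (r = 0.9965) for PAPLN, ENSG00000276850 (r = 0.9983) and STARD7 (r = 0.9978) for A2ML1, and IFNGR1 (r = 0.9635) and CCNI (r = 0.9564) for LAPTM5. GABBR2, a subunit of the GABA-B receptor, had means of 4.50 and 25.8 CPM in SKBR3 and stayed below 0.2 CPM in MDA-MB-453. IFNGR1, a chain of the interferon gamma receptor, had means of 34.1 and 68.5 CPM in SKBR3 and of 34.2 and 38.8 CPM in MDA-MB-453. For STAP2 they were FAAH2 (r = 0.9962) and ZNF503 (r = 0.9950), and for MST1R CCDC146 (r = 0.9873) and IGFBP3 (r = 0.9843). ANKRD22 was closest to SOX4 (r = 0.9925) and DGAT2 (r = 0.9848). The 2 genes that were lower with TWEAK were closest to PTGR3 (r = 0.9835) and MTHFD2 (r = 0.9827) for TTC21B, and to PSD4 (r = 0.9796) and FURIN (r = 0.9727) for RAP1GAP. FURIN, a proprotein convertase gene, had means of 166 and 104 CPM in SKBR3 and of 71.7 and 60.7 CPM in MDA-MB-453.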

How the data were processed

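Per the labels and the study's methods, the authors removed adaptors with Trimmomatic, mapped reads to hg38 with STAR and deposited raw counts per gene from featureCounts. Versions, strand setting, annotation release and the treatment of reads that map to several places are not given in the sources used here, and the labels and methods name different library kits, so reads from a gene and its antisense partner cannot be told apart. Of the 62696 identifiers, 62672 matched GENCODE 44 without version and 24 did not. Each line was tested with edgeR 4.0.16 in R 4.3.3 (filterByExpr, TMM, quasi-likelihood test, Benjamini-Hochberg over all genes tested, threshold 0.1, prior count 0.125), and the interaction and the untreated lines were tested over 12 libraries. The SE of a log2 fold change is its absolute value divided by the square root of the quasi-likelihood F. It is not a standard error reported by the fit and is approximate where counts are few. Intervals on count ratios are exact (Clopper-Pearson) at 95%. Scripts were tested on simulated data. The 10 genes and all lists were chosen with earlier results of these data known. Named genes are the 10, their neighbours, in each list at most 4 genes called with the largest change and a mean of at least 1 CPM, the markers and checks, and the 2 nearest patterns. Alternatives were DESeq2 1.42.0, its size factors, other filters, a threshold of 0.05, the replicate number as a block, other fits and each library left out.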

Additional observations from a re-analysis of the deposited data

Results flagged for a closer look

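The difference of the TWEAK changes between the lines is the interaction of line and treatment over 12 libraries (the MDA-MB-453 change less the SKBR3 change, log2), which passed the threshold in 3.37% of 17201 genes. Of the 10 chosen genes, 5 had a difference past it. This was part of the choice, so nothing is read from the count against the background. As a description, the 5 were LAPTM5 at -6.67 (from -8.23 to -6.13 with each library left out), ANKRD22 at -2.44, PAPLN at -2.18, STAP2 at -1.50 and MST1R at -1.40. LAPTM5 passed the filter through treated SKBR3 only. Of the neighbours and partners, CYP4F8, which had 9 untreated counts in SKBR3 and passed the filter in that line through the treated libraries only, differed by -2.21 (SE 0.59, no p given), STAT3 by -0.47 (SE 0.06, adjusted p = 0.000259), CD63 by -0.46 (SE 0.11, adjusted p = 0.0367) and IFT122 by -0.26 (SE 0.07, adjusted p = 0.0756), all with the smaller or more negative change in MDA-MB-453 (edgeR). RELB, the partner of the NFKB2 product, went the other way, with a difference of 1.30 (SE 0.21, adjusted p = 0.00158). Its level was 17.0 ± 2.04 CPM untreated and 46.3 ± 6.71 CPM treated in SKBR3, beside 1.26 ± 0.0521 and 8.53 ± 0.911 CPM in MDA-MB-453. The other neighbours and partners that are named above as called in a line did not pass for this difference. Among them were MYD88 at -0.10 (SE 0.06), ODF3B at -0.12 (SE 0.24) and NEDD4 at 0.25 (SE 0.13). The part of the untreated level in all these differences was not tested.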

How the results depend on the processing

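The 10 genes were chosen for their TWEAK changes and for line-specific changes, so whether those calls recur in other fits is not read as stability. The calls that moved concern A2ML1, KLHDC7B and TTC21B, which passed for the interaction in 5 fits, where 174 were run over all 10 genes. With DESeq2, 7 of the 10 passed for the interaction, the 5 of edgeR among them. Over all 17201 genes DESeq2 called 254 higher and 467 lower for it. LAPTM5 passed for the untreated lines in 1 fit (on 1 count against 12). The uncalled values of CYP4F12 changed sign: the interaction ran from -0.18 to 2.97 with each library left out, and the untreated difference from -0.43 to 2.72, and was -0.04 with the replicate block. A minimum of 10 counts in every library removed genes from the tests. In SKBR3 it left 7 of the chosen genes, 5 higher and 2 lower, where 913 and 567 of 14454 genes were. In MDA-MB-453 it left 5, with 1 higher and 2 lower, where 173 and 30 of 13974 genes were. For the interaction it left 5, of which 3 passed, where 192 of 12605 genes were higher and 396 lower. All 5 of 5 differed between untreated lines, where 5278 of 12605 genes were higher and 5321 lower in SKBR3.

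Partner genes called in SKBR3 ranged from 7 to 22 with each library left out, and in MDA-MB-453 from 0 to 23, with 5 without a filter on low counts, 8 with the replicate block and 0 with all 12 libraries in 1 fit. Neighbours called in MDA-MB-453 ranged from 1 to 5, with 2 without the filter and 3 with the block. Over all genes in SKBR3, 599 were called lower, 387 with the block, 363 at 0.05 and 1068 with 12 libraries, and in MDA-MB-453 192 higher and 31 lower, 490 and 404 with the block, 302 and 178 without the filter. With the block the SKBR3 calls of KRT19, NEDD4, NUMB, KLHDC10, IFT122 and RAP1GAP2 were lost (adjusted p = 0.105, 0.107, 0.127, 0.137, 0.147 and 0.208, edgeR). The cause was not tested. Replicate numbers were not shown to pair the libraries: deviations of same-numbered libraries correlated at 0.114, -0.0966 and -0.16 in SKBR3 and at 0.0868, 0.0839 and 0.025 in MDA-MB-453. Depth limits PAPLN, A2ML1 and LAPTM5 in MDA-MB-453 and the untreated levels of KLHDC7B, LAPTM5 and CYP4F12, where a limit of 3 counts is 0.0818 CPM in the deepest library.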
